A study of Sus scrofa with 15 samples.

Results

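The mitotic spindle and kinetochore genes are 52 genes, chosen by symbol, whose products drive and carry out mitosis. In the backfat libraries 47 of the 52 symbols could be matched to an Ensembl gene of the files, out of 30477 genes listed there, and 46 passed the filter on low counts and were tested. AURKA, KNL1, MKI67, PTTG1 and CCNA2 could not be matched and were not analysed here, and CENPK was matched but had from 0 to 9 counts per library and stayed under the filter. The members are set by symbol and not by a limit on measured values, but the list was drawn up with earlier results of these data known.

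A cell that divides must copy its chromosomes, attach each copy to microtubules of the spindle at a protein plate called the kinetochore, and pull the copies apart. Cyclin B with CDK1 starts this programme, the spindle checkpoint holds it until each kinetochore is attached, and the anaphase-promoting complex ends it by marking cyclin B and securin for destruction. Most of these genes are transcribed only in cells that are in or close to mitosis, so in fat, where mature adipocytes do not divide, they are usually read as a trace of the dividing precursor, vascular and immune cells.

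RNA was taken from biopsies of the dorsal subcutaneous fat of growing Iberian pigs, a local breed prone to fat deposition, with 5 pigs and 1 library per pig in each of 3 diets. The control (C) group ate a compound feed, the DOP group a compound feed made with dry olive pulp, and the WCOC group a compound feed with free access to a silage of wet crude olive cake and barley straw. Per the study, compound feed was restricted in all groups, more so in DOP and WCOC than in C. Feeding level and the other feed ingredients therefore cannot be told apart from the olive by-product. Each diet was fed in 1 pen, so pen and diet cannot be told apart, and the pigs that were sequenced were selected on the quantity and quality of their RNA. The libraries held between 22373715 and 34745218 counts on genes, and the adipocyte markers (ADIPOQ, PLIN1, FABP4, LIPE, CIDEC and LEP) summed to at least 10417 CPM (counts scaled to the depth of a library, here with the TMM factors of edgeR) in every library. By the run identifiers, flow cell A carried C1 to C4 with the 5 WCOC libraries, and flow cell B carried C5 with the 5 DOP libraries.

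In the WCOC group, 38 of the 46 tested mitotic genes were lower than in the C group and 0 were higher (edgeR quasi-likelihood test; a call needs an adjusted p below 0.05 together with a log2FC of 0.58 or more in either direction). At an unadjusted p under 0.05 (edgeR), 42 members were lower and 0 higher, where 3931 of all 14918 tested genes passed in either direction. Over all 14918 genes tested, 3.93% were called lower and 2.33% higher. The median log2FC of the members was −1.91, beside 0.004 over all genes, and the members ran from −2.84 (ASPM) to 0.05 (AURKB). For 36 of the 46 members every WCOC value lay below every C value, which was so for 3.87% of all genes. In the DOP group 0 of the 46 members were called, with a median log2FC of −0.28, where 0.55% of all genes were called lower and 0.215% higher. The heat map of centred log2 values shows the block of low values in the WCOC libraries and the members that stand outside it.

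**Figure D1:**
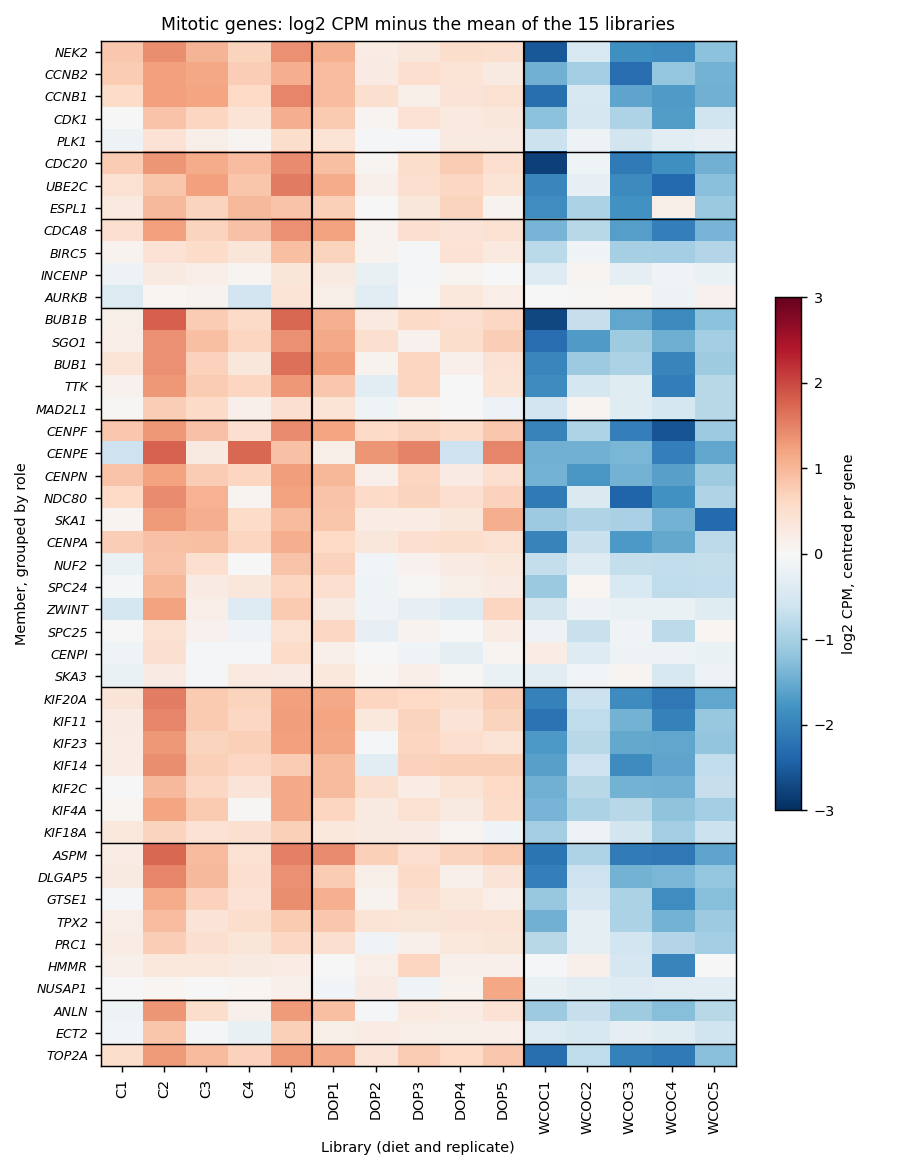
Log2 CPM of the 46 tested mitotic genes (rows, grouped by role with black lines between groups and sorted within a group by log2FC in WCOC vs. C) in the 15 libraries (columns), each minus its mean over the libraries, on a colour scale from blue (lower) to red (higher). The 5 WCOC columns are blue for most rows, while AURKB, SKA3, CENPI, INCENP, SPC25 and NUSAP1 show little contrast between C and WCOC.

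Taken library by library, the median CPM over the 46 members was 3.92, 6.92, 5.70, 4.54 and 7.24 in C1 to C5, 6.07, 4.08, 4.24, 4.39 and 4.51 in DOP1 to DOP5, and 1.15, 2.28, 1.42, 1.13 and 1.61 in WCOC1 to WCOC5. All 5 WCOC libraries lay below all libraries of both other diets, and the C and DOP libraries overlapped. In a bulk library, fewer dividing cells and less of these RNAs per cell cannot be told apart. Pigs of 1 diet also differed: C1 had the lowest C value for 35 of the 46 members, C2 the highest for 23 and C5 for 20, DOP1 was the highest DOP library for 39, and WCOC2 the highest WCOC library for 32. Over all 14918 tested genes C1 was lowest in C for 21.1%, and C2 and C5 highest for 20.6% and 22.2%. DOP1 was highest in DOP for 21.9% and WCOC2 in WCOC for 27.3%. On the log2 scale the members had a median SD within the diet of 0.407 (C), 0.276 (DOP) and 0.472 (WCOC), compared with 0.238, 0.216 and 0.233 over all tested genes.

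All 5 tested kinases and cyclins were lower in WCOC than in C. CCNB1, the cyclin B1 subunit that makes CDK1 active at mitotic entry, had CPM values of 4.56, 7.26, 7.1, 4.67 and 8.61 in C1 to C5, 5.9, 4.34, 3.49, 4.06 and 4.29 in DOP1 to DOP5, and 0.622, 2.21, 1.01, 0.921 and 1.12 in WCOC1 to WCOC5. The WCOC values did not overlap those of C or DOP, and the log2FC in WCOC vs. C was −2.46 ± 0.30 (SE; edgeR, adjusted p = 0.000413). NEK2, a centrosomal kinase, read 2.65, 4.02, 3.06, 2.42 and 3.94 CPM in C, 3.17, 1.74, 1.91, 2.18 and 2.09 in DOP and 0.229, 1.09, 0.392, 0.381 and 0.620 in WCOC, where it rested on 7 to 29 counts per library. Its log2FC of −2.57 ± 0.34 (adjusted p = 0.00068, edgeR) was the largest fall of this role. PLK1, the polo-like kinase that acts from entry to cytokinesis, was the exception in size, at 6.03, 9.1, 7.61, 7.05 and 9.68 CPM in C, 8.88, 6.45, 6.51, 8.07 and 8.05 in DOP and 4.29, 6.06, 4.54, 5.34 and 5.66 in WCOC. Here WCOC2 was just above C1, the log2FC was −0.61 ± 0.15 (adjusted p = 0.0235, edgeR), and the call was lost without C2, C5, WCOC1 or WCOC3. CDK1 itself (log2FC −1.59 ± 0.25) and CCNB2, cyclin B2 (−2.47 ± 0.23), were also called lower.

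The 3 tested partners of the anaphase-promoting complex were lower in WCOC as well. CDC20, the activator that turns the complex on at anaphase, read 6.57, 9.65, 8.35, 7.32 and 10.2 CPM in C, 7.19, 4.04, 5.56, 6.53 and 5.47 in DOP and 0.524, 3.52, 0.849, 1.05 and 1.39 in WCOC. WCOC2 stood above the other 4 WCOC libraries and still below the lowest DOP library, and the log2FC in WCOC vs. C was −2.53 ± 0.39 (adjusted p = 0.00175, edgeR). UBE2C, the ubiquitin-conjugating enzyme of the complex, read 4.17, 5.38, 7.2, 5.45 and 9.01 CPM in C, 6.55, 3.36, 4.29, 4.66 and 4.01 in DOP and 0.753, 2.55, 0.784, 0.572 and 1.24 in WCOC, a log2FC of −2.41 ± 0.37 (adjusted p = 0.0016, edgeR). ESPL1, the separase that cuts cohesin, had a log2FC of −1.69 ± 0.34, with WCOC4 at 3.65 CPM far above the other WCOC libraries (from 0.851 to 1.65).

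The 4 subunits of the chromosomal passenger complex, which corrects wrong attachments at the centromere, did not move as 1 block. BIRC5 (survivin) and CDCA8 (borealin) were lower in WCOC, with log2FC of −1.23 ± 0.21 and −2.42 ± 0.27. AURKB, the kinase of the complex, read 4.02, 5.6, 5.77, 3.54 and 7.09 CPM in C, 6.03, 4.23, 5.25, 6.61 and 6.17 in DOP and 5.33, 5.43, 5.55, 4.8 and 5.84 in WCOC, with the WCOC values inside the range of C (log2FC 0.05 ± 0.18, adjusted p = 0.892, edgeR), and the sign of its log2FC turned without C1 or C4. INCENP, the scaffold, read 7.9, 10.6, 9.94, 9.27 and 11.2 CPM in C, 10.6, 7.51, 8.52, 9.24 and 8.65 in DOP and 6.64, 9.28, 7.18, 8.04 and 7.64 in WCOC, with overlapping ranges and a log2FC of −0.33 ± 0.13 that was not called (adjusted p = 0.109, edgeR).

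Every tested gene of the spindle checkpoint and of cohesin protection was lower in WCOC, 5 of 5. BUB1B, the checkpoint protein BubR1, read 3.92, 12, 5.86, 5.18 and 11.4 CPM in C, 7.23, 4.26, 5.19, 4.92 and 5.33 in DOP and 0.491, 2.13, 1.14, 0.889 and 1.45 in WCOC. C2 and C5 were far above the other C libraries, the lowest C value was above the highest WCOC value, and the log2FC was −2.65 ± 0.38 (adjusted p = 0.00119, edgeR). SGO1, the shugoshin that shields centromeric cohesin, read 1.08, 2.48, 1.78, 1.48 and 2.49 CPM in C, 2.09, 1.32, 1.02, 1.35 and 1.57 in DOP and 0.164, 0.262, 0.424, 0.318 and 0.443 in WCOC (5 to 15 counts per WCOC library), a log2FC of −2.51 ± 0.31 (adjusted p = 0.000413, edgeR). MAD2L1, the MAD2 protein that blocks CDC20, changed least in this role, at 6.03, 9.78, 8.79, 6.54 and 8.22 CPM in C, 7.79, 5.36, 6.24, 5.86 and 5.19 in DOP and 3.89, 6.18, 4.57, 4.03 and 3.25 in WCOC, with 1 WCOC library above the lowest C library and a log2FC of −0.85 ± 0.19 (adjusted p = 0.0139, edgeR). The checkpoint kinases BUB1 and TTK (MPS1) had log2FC of −2.38 ± 0.34 and −1.89 ± 0.36, both called.

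**Figure D2:**
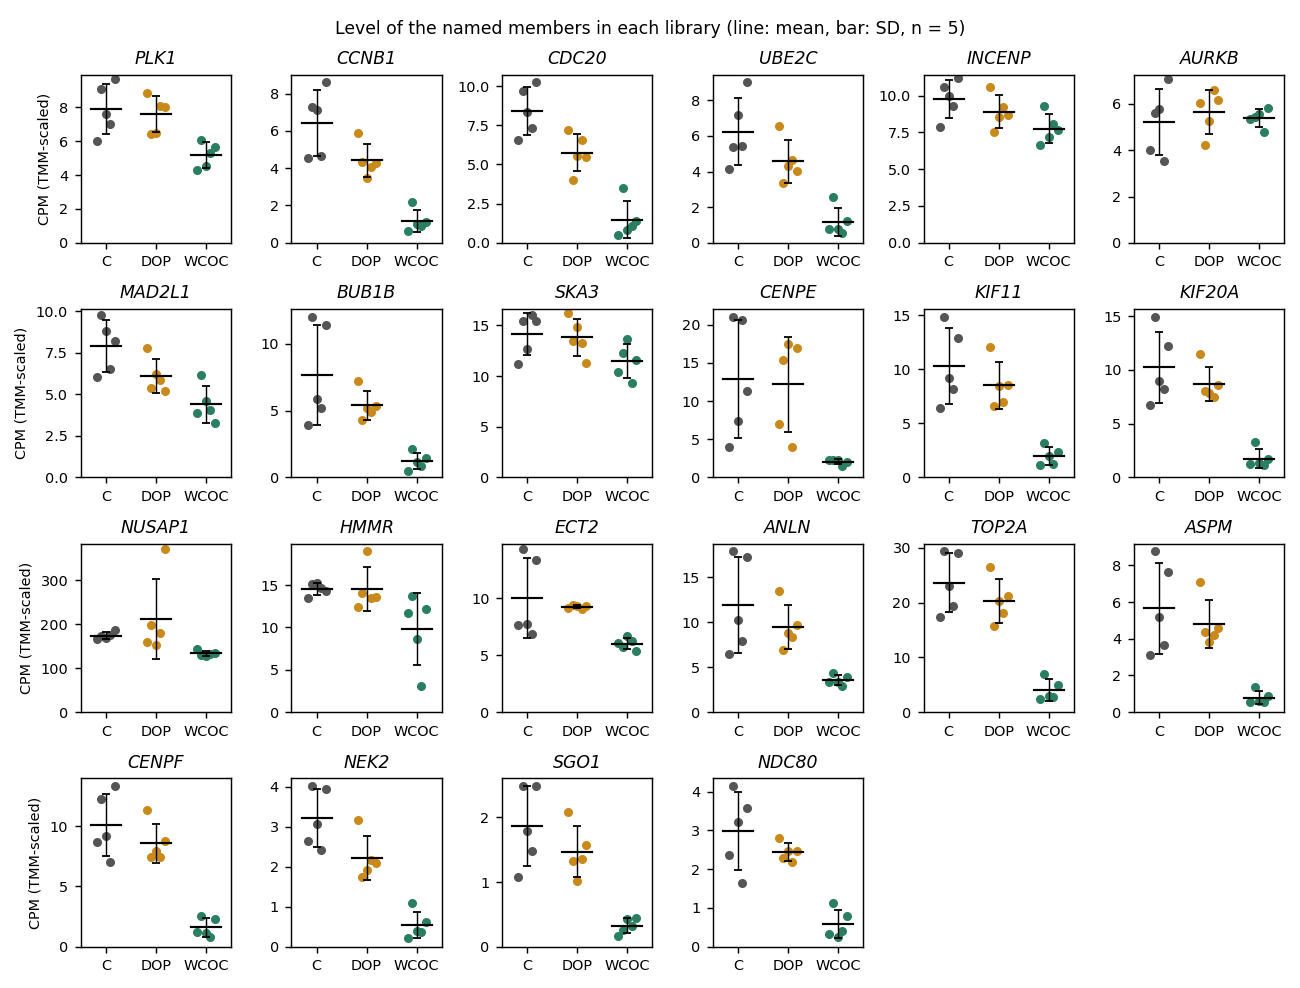
TMM-scaled CPM (y axis, from 0, a scale of its own in each panel) of 22 named mitotic genes in the 5 pigs of each diet (points), with the mean (line) and SD (bar). In most panels the WCOC points lie below all others, while AURKB overlaps across the diets, HMMR has 1 low WCOC library, and NUSAP1 has 1 DOP library at 370 CPM.

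Among the centromere and kinetochore genes, 8 of 12 tested were called lower. CENPF, a large protein of the outer kinetochore, read 8.68, 12.2, 9.21, 7.05 and 13.3 CPM in C, 11.3, 7.47, 7.9, 7.44 and 8.75 in DOP and 1.21, 2.58, 1.18, 0.794 and 2.3 in WCOC, with a log2FC of −2.65 ± 0.30 (adjusted p = 0.000208, edgeR). NDC80, the subunit that grips the microtubule end, read 2.35, 4.14, 3.22, 1.64 and 3.58 CPM in C, 2.81, 2.3, 2.47, 2.18 and 2.48 in DOP and 0.327, 1.12, 0.261, 0.413 and 0.797 in WCOC, a log2FC of −2.35 ± 0.36 (adjusted p = 0.00171, edgeR). Both genes were lower in every WCOC library than in any C or DOP library. Its partners in the same complex moved less, with log2FC of −1.12 ± 0.21 for NUF2, −1.04 ± 0.24 for SPC24 and −0.50 ± 0.20 for SPC25, the last not called (adjusted p = 0.127, edgeR).

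CENPE, the kinesin motor that brings chromosomes to the spindle equator, had an uneven spread in the higher groups, at 4.02, 21.1, 7.39, 20.6 and 11.3 CPM in C, 6.99, 15.4, 17.5, 4.02 and 17 in DOP and 2.26, 2.25, 2.35, 1.46 and 2.07 in WCOC. High and low values stood side by side within C and within DOP, and DOP1, the highest DOP library for 39 members, was among the low ones for CENPE. The WCOC values were close together, and the log2FC was −2.63 ± 0.47 (adjusted p = 0.00446, edgeR). CENPA, the histone H3 variant that marks the centromere, CENPN, which binds it, and SKA1, which tracks microtubules, were called lower (log2FC −2.15 ± 0.24, −2.46 ± 0.22 and −2.24 ± 0.32). SKA3, a partner of SKA1, was not, reading 11.2, 15.4, 12.7, 16 and 15.4 CPM in C, 16.2, 13.5, 14.8, 13.2 and 11.3 in DOP and 10.4, 12.3, 13.6, 9.31 and 11.6 in WCOC (log2FC −0.31 ± 0.13, adjusted p = 0.157, edgeR). CENPI (−0.32 ± 0.16) and ZWINT (−0.71 ± 0.31) were also not called. SKA3 shares 287 exon bases with MRPL57 on the opposite strand in RefSeq, so its counts are uncertain.

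The 7 kinesins of the list, motors that slide, depolymerise or bundle spindle microtubules, were all called lower in WCOC, with no overlap between WCOC and C. KIF11 (Eg5), which pushes the spindle poles apart, read 6.38, 14.9, 9.17, 8.18 and 12.9 CPM in C, 12.1, 6.6, 8.43, 6.95 and 8.54 in DOP and 1.11, 3.14, 1.96, 1.27 and 2.39 in WCOC, a log2FC of −2.38 ± 0.30 (adjusted p = 0.000505, edgeR). KIF20A, a motor of the late spindle and cytokinesis, read 6.77, 15, 9.01, 8.26 and 12.3 CPM in C, 11.5, 8.08, 7.87, 7.47 and 8.61 in DOP and 1.24, 3.29, 1.37, 1.14 and 1.74 in WCOC, a log2FC of −2.55 ± 0.30 (adjusted p = 0.000312, edgeR). KIF20A shares 1462 exon bases with CDC23 on the opposite strand in RefSeq, and the strand setting of the counting is not given in the sources used here. KIF2C shares 429 exon bases with C6H1orf228 on the same strand, and KIF23 shares 353 with a noncoding gene on the opposite strand. The counts of KIF20A, KIF2C and KIF23 are therefore uncertain. Shorter exon overlaps were present for CDCA8 (114 bases), PRC1 (85), PLK1 (59), AURKB (17), CDK1 (14) and KIF18A (2). Apart from KIF11 and KIF20A, the other 5 kinesins had log2FC from −2.24 (KIF23) to −1.21 (KIF18A).

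Of the 7 tested spindle assembly factors 5 were called lower, and ASPM had the largest fall of all 46 members. ASPM (ENSSSCG00000010896, chr10:19971516-20039680 on the minus strand), a protein of the spindle pole, read 3.09, 8.76, 5.16, 3.66 and 7.65 CPM in C, 7.11, 4.38, 3.8, 4.21 and 4.57 in DOP and 0.556, 1.39, 0.588, 0.572 and 0.856 in WCOC, a log2FC of −2.84 ± 0.34 (adjusted p = 0.000413, edgeR). The mean of the WCOC group was 0.140 of that of the C group. HMMR, a microtubule and hyaluronan binding protein, read 13.5, 15.1, 15.2, 14.7 and 14.3 CPM in C, 12.4, 14, 19.1, 13.5 and 13.6 in DOP and 11.7, 13.7, 8.62, 3.05 and 12.1 in WCOC. WCOC4 was the lowest library and WCOC3 the next, the groups overlapped, and the log2FC of −0.57 ± 0.27 was not called (adjusted p = 0.201, edgeR). HMMR shares 272 exon bases with NUDCD2 on the opposite strand in RefSeq, so its counts are uncertain.

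NUSAP1, a nucleolar and spindle-associated protein, was read at a level far from the rest, at 166, 174, 169.6, 175 and 186 CPM in C, 159, 197, 153, 179.8 and 370.4 in DOP and 144, 131, 129, 132 and 135 in WCOC. Per kilobase of exon it had 45.5 CPM in C, ahead of 7.43 for UBE2C, the next member. RefSeq places 738 exon bases of NDUFAF1 and 412 of OIP5 over its exons on the opposite strand, so its counts are uncertain. All WCOC values lay below all C values, but the log2FC of −0.38 ± 0.19 was not called (adjusted p = 0.22, edgeR). TPX2, which activates Aurora A at the spindle, and DLGAP5, GTSE1 and PRC1 were called lower, with log2FC of −1.57 ± 0.21, −2.27 ± 0.28, −1.92 ± 0.30 and −1.23 ± 0.19.

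Both cytokinesis genes and the 1 tested gene of chromosome structure were lower in WCOC. ANLN (anillin), a scaffold of the contractile ring, read 6.43, 17.9, 10.2, 7.91 and 17.2 CPM in C, 13.4, 6.94, 8.8, 8.37 and 9.62 in DOP and 3.31, 4.38, 3.4, 2.92 and 3.95 in WCOC, a log2FC of −1.73 ± 0.27 (adjusted p = 0.0019, edgeR). ECT2, which activates RhoA at the division plane, read 7.7, 14.4, 7.77, 6.89 and 13.4 CPM in C, 9.2, 9.43, 9.29, 9.09 and 9.31 in DOP and 6.05, 5.77, 6.66, 6.29 and 5.34 in WCOC. The C group was split, with C2 and C5 high, and the log2FC of −0.73 ± 0.18 (adjusted p = 0.0237, edgeR) lost its call without C2, C5, WCOC1 or WCOC5. TOP2A, the topoisomerase that untangles sister chromatids, read 17.4, 29.4, 23.1, 19.4 and 29 CPM in C, 26.5, 15.7, 20.3, 18.2 and 21.2 in DOP and 2.49, 7.04, 2.94, 2.73 and 5.04 in WCOC, a log2FC of −2.55 ± 0.28 (adjusted p = 0.000208, edgeR).

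**Figure D3:**
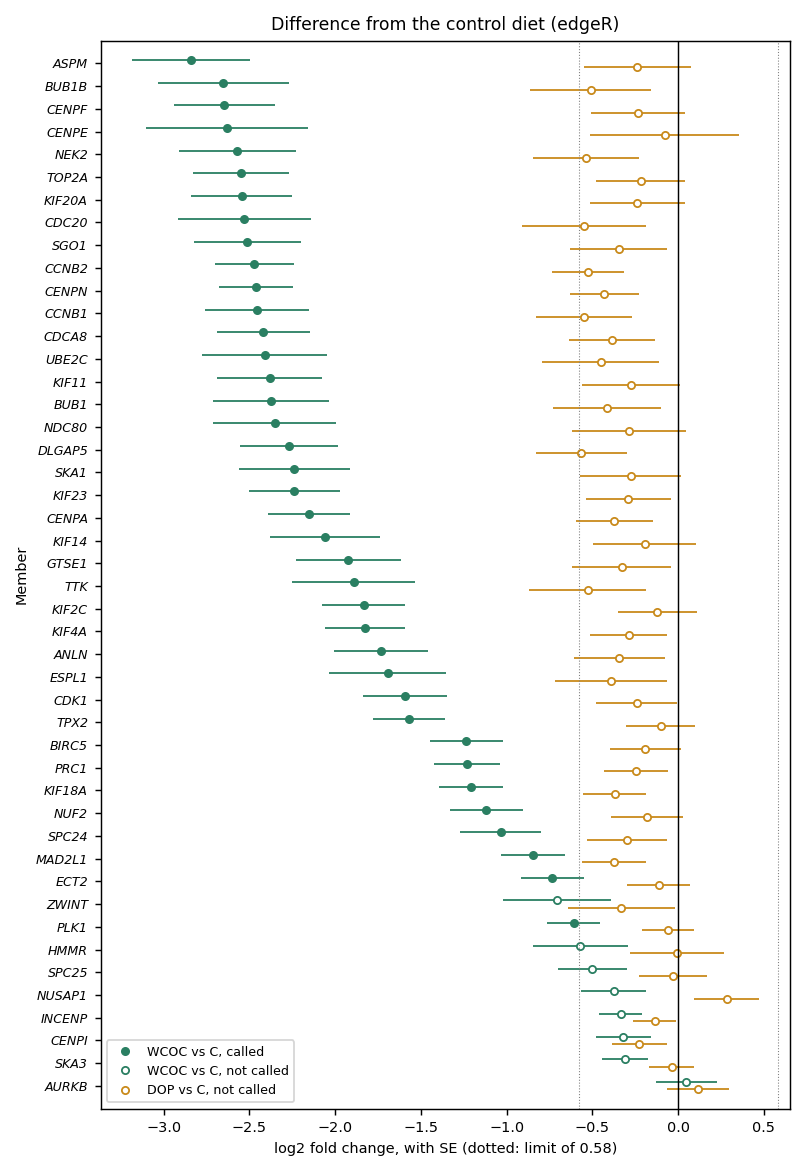
Log2 fold change (x axis) with its SE (bars) of the 46 tested mitotic genes (rows) in WCOC vs. C (green) and DOP vs. C (orange), both against the same 5 C libraries. Filled points were called and open points were not. The count of filled points is 38 in green and 0 in orange.

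The C against WCOC difference could be looked at within 1 flow cell. With flow cell A alone (C1 to C4 against WCOC1 to WCOC5) 34 members were called lower with a median log2FC of −1.76, where 2.16% of 14698 genes were called lower and 1.14% higher. In lane 2 of that flow cell alone (C1 to C4 against WCOC1 to WCOC3) 5 members were called lower with a median of −1.85, where 0.177% of 14696 genes were called lower and 0.0544% higher.

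The promoters of the members are shown because genes of late cell division share letters near their start. In mammals the DREAM and MuvB complexes hold many such genes silent outside the cycle through a CHR element (cell cycle genes homology region), and the factor NF-Y binds CCAAT boxes beside it. The 300 bases from 250 before to 50 after the RefSeq gene start (Sscrofa11.1) were searched on both strands for CHR letters (TTTGAA or TTCGAA) and for CCAAT. A CHR match was present in 26 of the 47 matched members (55.3%) and in 15.6% of 19559 protein-coding genes, and CCAAT in 37 (78.7%) against 35.4%. Both were present in 20 members (42.6%) against 6.14%, and 20 members held 2 or more CCAAT matches against 11% of all. No CHR match overlapped a CCAAT match in the members. Below are the 150 bases before the start of 4 called members with several matches (UBE2C, chr17:48018253-48018402, plus strand; TOP2A, chr12:22001150-22001299, plus strand; CCNB2, chr1:112942219-112942368, minus strand; ASPM, chr10:20039681-20039830, minus strand) and of INCENP (chr2:9445826-9445975, minus strand), which was not called and is shown because it holds the same letters. They were picked after the values were seen, and capitals mark whole matches. A CCAAT match on the other strand appears as ATTGG. A CHR match on the other strand appears as TTCAAA, while TTCGAA is the same on both.
UBE2C: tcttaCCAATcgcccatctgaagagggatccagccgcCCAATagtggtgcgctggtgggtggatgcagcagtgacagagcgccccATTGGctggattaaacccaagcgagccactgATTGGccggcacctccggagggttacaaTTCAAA
TOP2A: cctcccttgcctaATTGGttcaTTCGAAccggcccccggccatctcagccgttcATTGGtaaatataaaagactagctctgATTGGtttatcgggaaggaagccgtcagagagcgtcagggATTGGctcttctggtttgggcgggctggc
CCNB2: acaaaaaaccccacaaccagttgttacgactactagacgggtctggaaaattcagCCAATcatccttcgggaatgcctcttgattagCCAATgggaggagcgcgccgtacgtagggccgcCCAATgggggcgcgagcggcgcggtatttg
ASPM: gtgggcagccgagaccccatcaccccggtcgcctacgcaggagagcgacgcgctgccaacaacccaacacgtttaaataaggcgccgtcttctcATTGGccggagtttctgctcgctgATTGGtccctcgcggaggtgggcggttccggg
INCENP: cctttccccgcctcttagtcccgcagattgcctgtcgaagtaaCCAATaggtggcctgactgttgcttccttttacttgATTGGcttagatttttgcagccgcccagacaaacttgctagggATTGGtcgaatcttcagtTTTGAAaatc

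UBE2C and TOP2A each hold 4 CCAAT matches and 1 CHR match in these bases, CCNB2 holds 3 CCAAT matches, ASPM 2, and INCENP 3 with 1 CHR match. CCNB2 also has a CHR match at position −4, which runs past the end of the bases shown and is not capitalised. A CHR match was present in 22 of the 38 members called lower in WCOC (57.9%) and in 4 of the 8 that were tested and not called, and CCAAT in 30 (78.9%) and 6. SKA3 held neither, and neither did KIF14, GTSE1 and ANLN, which were called lower. A match of letters is not a binding site, and no binding was measured here. The window rests on the outermost RefSeq start of each gene, and the start used in fat was not measured. An absent match therefore holds for this window only.

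**Figure D4:**
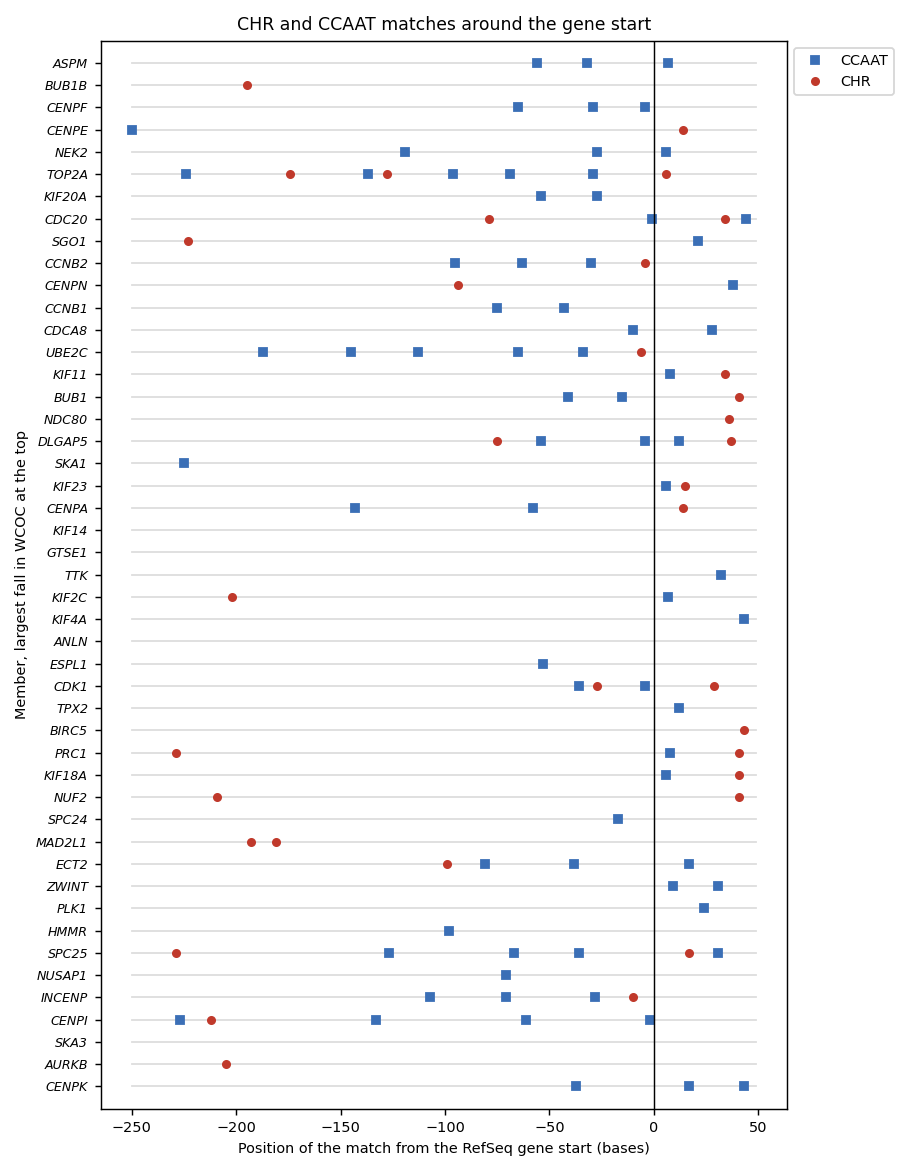
Position of CCAAT (blue squares) and CHR (red circles) matches relative to the RefSeq gene start (x axis, bases, 0 is the start) in the 47 matched members (rows, largest fall in WCOC vs. C at the top, CENPK, which was not tested, at the bottom). Matches appear from the top to the bottom of the order.

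In the DOP vs. C comparison, which shares its 5 C libraries with WCOC vs. C, 44 of 46 members had a log2FC below 0, the exceptions being AURKB (0.12 ± 0.18) and NUSAP1 (0.28 ± 0.19). Of all 14918 tested genes, 7137 were below 0. The members varied together between pigs, so these are not 44 separate results. With edgeR 2 members had an unadjusted p under 0.05 and 0 were called, with DESeq2 5 and 0, and with limma-voom 8 and 0. Over all 14918 tested genes, 2623 (edgeR), 2759 (DESeq2) and 2247 (limma-voom) had an unadjusted p under 0.05, so the members did not stand out by this count. Of these genes, 82 were called lower and 32 higher with edgeR, 284 and 211 with DESeq2, and 8 and 11 with limma-voom. The members with an unadjusted p under 0.05 in edgeR were CCNB2, with 3.73, 5.21, 4.97, 3.66 and 4.7 CPM in C and 4.18, 2.6, 3.12, 2.93 and 2.65 in DOP (log2FC −0.53 ± 0.21, adjusted p = 0.218, edgeR), and CENPN, with 2.65, 3.42, 2.48, 2.3 and 3.51 in C and 2.93, 1.62, 2.28, 1.73 and 2.09 in DOP (−0.43 ± 0.20, adjusted p = 0.28, edgeR). The ranges of C and DOP overlapped for both. All DOP values were below all C values for 2 members, CENPA (3.04, 3.33, 3.41, 2.84 and 3.91 CPM in C, 2.77, 2.3, 2.56, 2.63 and 2.51 in DOP) and KIF18A (1.81, 2.31, 1.97, 2.03 and 2.39 in C, 1.81, 1.74, 1.73, 1.54 and 1.32 in DOP), compared with 1.76% of all genes. The SE of the log2FC in DOP vs. C ran from 0.13 to 0.44, and the median of −0.28 is smaller than the log2FC of 0.58 that a call needs. All DOP libraries were run on flow cell B and C1 to C4 on flow cell A, so diet and flow cell are largely confounded here. C5, the only C library on flow cell B, had a median over the members of 7.24 CPM, the highest in C. The DOP libraries ran from 4.08 to 6.07 CPM. The size of the median log2FC therefore depends on libraries of different flow cells.

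WCOC and DOP were compared directly. In WCOC 36 of 46 members were called lower and 0 higher than in DOP (5.11% of all genes were called lower and 2.65% higher), with a median log2FC of −1.65, and all WCOC values lay below all DOP values for 36 members (4.77% of all genes). ASPM again had the largest difference (−2.60 ± 0.34, adjusted p = 0.00107, edgeR), followed by CENPE (−2.55 ± 0.47) and CENPF (−2.41 ± 0.29). PLK1, SPC24 and MAD2L1, called in WCOC vs. C, missed the limits against DOP (log2FC −0.55 ± 0.15, −0.74 ± 0.24 and −0.47 ± 0.19), while NUSAP1 was called here (−0.66 ± 0.19) but not without DOP2, DOP5 or any 1 WCOC library. ECT2 (−0.62 ± 0.18) lost its call against DOP without any 1 library of these diets. The DOP libraries were all run on flow cell B and the WCOC libraries on flow cell A, with C5 as the only link between the cells within a diet. With flow cell as a covariate 0 members and 0 genes in all were called lower in WCOC (1 gene was called higher), with a median of −1.15 over the members.

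The wider machinery of division was read from 7 lists of genes that are not members. In WCOC vs. C, 9 of 23 tested other kinetochore and centromere genes were called lower, 3 of 17 genes of cohesin and condensin, 1 of 14 of the core of the anaphase-promoting complex, 2 of 13 of the DREAM, MuvB and NF-Y factors, 6 of 7 regulators of mitotic entry, 9 of 16 other spindle, centrosome and midbody genes, and 12 of 21 genes of DNA replication. None of these genes was called higher in WCOC, and none was called in DOP vs. C, where 0 to 2 genes of a list had an unadjusted p under 0.05 (edgeR). Over all 14918 tested genes, 3.93% were called lower and 2.33% higher in WCOC vs. C. In DOP vs. C, 2623 of all genes had an unadjusted p under 0.05 (edgeR). The median log2FC ran from −1.27 (mitotic entry) to −0.05 (DREAM, MuvB and NF-Y).

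HJURP, the chaperone that loads CENPA, was at 2.23 ± 0.840 CPM in C (mean ± SD, n = 5) and 0.452 ± 0.328 in WCOC, a log2FC of −2.31 ± 0.44 (adjusted p = 0.00616, edgeR). CENPT, which bridges the centromere and the NDC80 complex, fell from 4.16 ± 1.43 to 0.939 ± 0.267 CPM (log2FC −2.14 ± 0.27). The condensin subunit NCAPG had a log2FC of −2.63 ± 0.27 and CDCA5 (sororin), which stabilises cohesin, one of −1.93 ± 0.29. FBXO5 (EMI1), an inhibitor of the anaphase-promoting complex, was the 1 gene called in its list (−0.76 ± 0.23, adjusted p = 0.0473, edgeR).

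FOXM1 and MYBL2 (B-Myb), the activators of the late cell cycle genes, were the 2 genes called in the DREAM, MuvB and NF-Y list. FOXM1 read 1.08, 2.73, 1.59, 1.44 and 3.05 CPM in C, 2.97, 1.77, 1.82, 1.31 and 1.74 in DOP and 0.196, 0.337, 0.326, 0.508 and 0.590 in WCOC, a log2FC of −2.32 ± 0.36 (adjusted p = 0.00174, edgeR), with no overlap between WCOC and the other diets. MYBL2 read 5.64, 13.5, 13, 9.93 and 18.5 CPM in C, 12.2, 8.08, 8.92, 8.56 and 10.6 in DOP and 4.06, 7.41, 5.32, 7.4 and 4.48 in WCOC (−1.08 ± 0.26, adjusted p = 0.0211, edgeR), with overlapping ranges. Among the entry regulators, MASTL (Greatwall kinase) and PKMYT1, the kinase that holds CDK1 inactive, had log2FC of −2.21 ± 0.23 and −1.89 ± 0.44. CIT (citron kinase) of the midbody and KIF15, a spindle kinesin, had −2.50 ± 0.23 and −2.40 ± 0.29. In the replication list, CDT1, which licenses origins, and UHRF1, which carries DNA methylation through replication, had −2.17 ± 0.29 and −2.09 ± 0.33.

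Markers of cell types that could hold dividing cells also moved with the diet. Of 10 macrophage markers 6 were called lower in WCOC vs. C (median log2FC −1.17), and their summed CPM ran from 275 to 823 in C, 189 to 469 in DOP and 134 to 349 in WCOC. Some of these markers are among the genes the study itself reported on these pigs, so they are not independent evidence. Of 7 fibroblast and preadipocyte markers 3 were called lower (LUM, COL1A1 and COL1A2), with sums from 10246 to 17980 CPM in C, 7609 to 13677 in DOP and 3653 to 10510 in WCOC. None of 6 T cell markers was called, the B cell markers were too low to test (CD79A was at 0 in every library), and 1 of 5 endothelial and 1 of 6 adipocyte markers were called higher. Of the tested markers, 4 mural, 4 skeletal muscle, 4 keratinocyte and 3 erythroid, 0 were called in WCOC vs. C (0 to 1 per list at an unadjusted p under 0.05, edgeR). Over all 14918 tested genes, 3.93% were called lower and 2.33% higher in WCOC vs. C, and 3931 had an unadjusted p under 0.05 (edgeR). The muscle sum varied widely within each diet, from 39.4 to 3099 CPM in C, 30.4 to 38630.4 in DOP (highest in DOP5) and 16.1 to 605 in WCOC. Within each diet the library with the highest macrophage sum also had the highest mitotic median: C5 (823 and 7.24 CPM), DOP1 (469 and 6.07) and WCOC2 (349 and 2.28). The fibroblast sum was highest in DOP1 and WCOC2 too, but in C3 within C. Below the top library the macrophage and mitotic orders parted in C and DOP. C2 had the lowest macrophage sum in C (275) and a mitotic median of 6.92, below that of C5 alone. DOP5 had the lowest sum in DOP (189) with a median of 4.51, and DOP2 a sum of 349 with the lowest median (4.08). In WCOC the orders differed only between WCOC1 (134 and 1.15) and WCOC4 (139 and 1.13). Between diets the orders also differed, since C2 (275) and C4 (306) had lower macrophage sums than WCOC2 and mitotic medians of 6.92 and 4.54. The part of these cell types in the mitotic values was not tested.

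**Figure D5:**
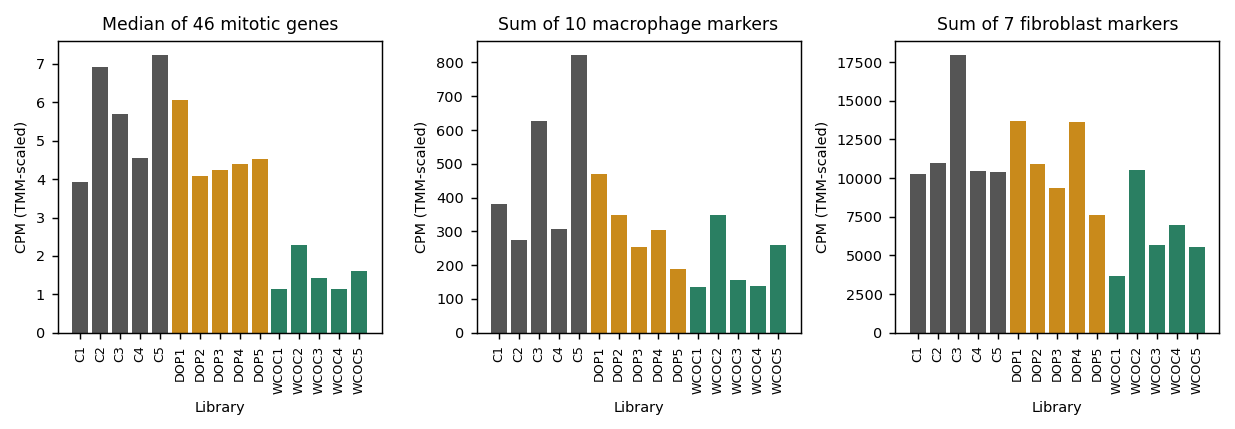
Median CPM of the 46 tested mitotic genes (left), summed CPM of 10 macrophage markers (middle) and of 7 fibroblast markers (right) in each of the 15 libraries (bars from 0; grey C, orange DOP, green WCOC). The mitotic median separates all WCOC libraries from the rest, and both marker sums overlap between the diets.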

How the data were processed

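The 15 libraries, 1 per pig and 5 per diet, were grouped by the treatment labels. Per the labels and the study's methods, the authors aligned read pairs to Sscrofa11.1 with HISAT2, set for strand-specific reads, and assigned them to Ensembl genes with HTSeq. The deposited files hold these raw counts for 30477 genes, and 5 summary lines per file, with 23.4% to 32.8% of a library, were left out. The strand option of HTSeq, the annotation release and the tool versions are not given in the sources used here. No sign of libraries deposited more than once was found, but 1 pen per diet means that p-values measure the spread between pigs of 1 pen.

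Counts were fitted with edgeR 4.0.16 (R 4.3.3): filterByExpr by diet (14918 genes), TMM scaling (factors 0.857 to 1.21), a quasi-likelihood model over all 15 libraries and two-sided contrasts, with p-values adjusted by Benjamini-Hochberg across the whole table. Called genes had an adjusted p below 0.05 together with a log2FC of 0.58 or more in either direction. CPM values were computed from the deposited counts with TMM-scaled library sizes, and centred log2 values used a prior count of 1. The workflow was tested on simulated data. Counts limit precision for the lowest members, which had 4 to 15 counts in WCOC libraries (SKA1 and SGO1).

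Symbols came from a reference table of Ensembl IDs, which named 14864 IDs of the files. Promoter bases, gene positions and exon overlaps came from the RefSeq annotation and genome of Sscrofa11.1, found by symbol. Members given in every library were the 2 of highest mean CPM in each of 9 roles and the 5 largest falls in WCOC vs. C, plus up to 10 called in the other comparisons, and 2 genes were named per further list. CCNB2, CENPN, CENPA and KIF18A in DOP vs. C and MYBL2 and FOXM1 with all libraries were added after their values were seen. The members, the lists of genes and the markers were chosen with earlier results of these data known, and no list was tested as a set.

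Alternatives were DESeq2 1.42.0 and its size factors, limma-voom 3.58.1, no filter or a mean of at least 1 CPM, no log2FC limit, fits of 2 diets only, a block on replicate number, flow cell (read from run identifiers) as a term, single flow cells and lanes, and each library left out in turn. Tables and plots used Python 3.11.15, pandas 2.3.3, pysam 0.24.0 and matplotlib 3.10.9.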

Additional observations from a re-analysis of the deposited data

Results flagged for a closer look

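Of 69 groups of 5 values (3 diets for each of the 22 named members and for the mean log2 CPM over the tested members), 6 held a library far from the other 4 by Dixon's gap over range, where chance flags about 1 in 20 groups. CDC20 was at 3.52 CPM in WCOC2, with the other WCOC libraries between 0.524 and 1.39. KIF20A was at 3.29 CPM in WCOC2 (others 1.14 to 1.74) and at 11.5 CPM in DOP1 (others 7.47 to 8.61). ASPM was at 7.11 CPM in DOP1 (others 3.80 to 4.57). These are the libraries that were highest in their diet for 32 (WCOC2) and 39 (DOP1) of the 46 members, and for 27.3% and 21.9% of all tested genes.

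NUSAP1 was at 370 CPM in DOP5, with the other DOP libraries between 153 and 197, and HMMR was at 19.1 CPM in DOP3 (others 12.4 to 14). Neither stood out in the same library for the other members, since DOP3 was highest for 2 and DOP5 for 3 of the 46 (18.8% and 25.9% of all tested genes).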

How the results depend on the processing

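In WCOC vs. C the count of members called lower was 38 with DESeq2, limma-voom, the size factors of DESeq2, no filter and no log2FC limit, 37 with a mean of at least 1 CPM or only these diets in the fit, 36 with flow cell as a covariate and 34 in flow cell A alone. It was 5 in lane 2 of flow cell A alone, with 7 libraries. Of all 14918 tested genes, 760 (DESeq2), 553 (limma-voom), 595 (size factors), 807 (no log2FC limit) and 420 (flow cell as a covariate) were called lower. Other gene sets gave 509 of 22920 (no filter), 538 of 13125 (mean of at least 1 CPM), 489 of 14553 (only these diets), 318 of 14698 (flow cell A) and 26 of 14696 (its lane 2). Without 1 library the count of members ranged from 36 to 38 (median log2FC −2.08 to −1.75), and 36 of the 38 were called in every such fit, the exceptions being PLK1 and ECT2. Those fits called 287 to 709 of all genes lower. The sign of AURKB turned without C1 (−0.037) and without C4 (−0.067), in a range of −0.067 to 0.186 over the fits without 1 library.

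In WCOC vs. DOP the count of 36 became 0 with flow cell as a covariate (median −1.15), a fit in which only C5 ties the flow cells, and ranged from 32 to 37 without 1 library (median −1.79 to −1.54). Over all genes the covariate fit called 0 lower and 1 higher, and the fits without 1 library called 364 to 889 lower. ESPL1 was lost without DOP4, WCOC1, WCOC3 or WCOC5, and TTK without WCOC1 or WCOC4. In DOP vs. C 0 members were called in every alternative, and the median ranged from −0.41 to −0.15 without 1 library. Some of these fits called few or no genes at all, so their 0 says little about the members. Over all genes 0 were called in either direction without C3, C5, DOP2 or DOP4. Only these diets in the fit gave 2 lower and 0 higher, and limma-voom 8 lower and 11 higher. The cause of the changes between fits was not tested.

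The replicate numbers of the labels share only a number between diets. Correlations of the deviations of same-numbered libraries ran from −0.495 to −0.12 in DOP vs. C, −0.283 to 0.345 in WCOC vs. C and −0.196 to 0.286 in WCOC vs. DOP. With the replicate number as a block, 36 members were called lower in WCOC vs. C (median −1.95), 34 in WCOC vs. DOP (−1.70) and 0 in DOP vs. C (−0.23). Of all 14918 genes, that fit called 286 lower and 187 higher in WCOC vs. C, and 330 lower and 231 higher in WCOC vs. DOP. In DOP vs. C it called 0 genes of any kind, so its 0 members say nothing about the members.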
